A study of Homo sapiens with 16 samples.

Results

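Downstream-of-gene transcripts (DoGs) of 6 genes, THOC3, OR2D2, TIMM10B, TMEM38B, SAMD5 and HCCS-DT, were examined in HEK293 cells, a human embryonic kidney cell line. These 6, of 3505 genes with a listed DoG region, were chosen by their region length and abundance in untreated cells, where the DoG was longer or more abundant in RNA freed from the interphase than in RNA from improved extraction of the whole lysate. All 6 also had a row among the 3139 rows of DoG abundance. The difference that picked them is therefore described below without a test, and tests compare only libraries that the choice did not use.

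The study prepared RNA in 4 ways from wild-type cells, either left untreated (Ctrl) or kept for 9 h in 200 mM sorbitol with 100 µg/mL cycloheximide, a translation inhibitor (OSCHX). Conventional acid guanidinium-phenol-chloroform extraction (Conv) leaves part of the RNA behind at the interphase, and the improved, heat-assisted extraction (Impr) recovers it together with the rest. SERIPH splits the same lysate: its first step collects the ordinary aqueous phase (Conv1st), and its second step heats the washed interphase at 55 °C for 10 min and collects what is released (Conv2nd). Each of the 8 groups had 2 biological replicates, and the libraries were rRNA-depleted and stranded, made from 100 to 500 ng of RNA for Conv1st and 5 to 50 ng for Conv2nd. Both conditions come from 1 cell line, the 2 agents were always given together, and untreated cells received neither, so the part of each agent cannot be told apart. The files used here hold DoG regions and DoG abundance but no gene-body levels, so the cell line was not checked against marker genes.

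A DoG arises when RNA polymerase II fails to stop at the end of a gene and continues into the sequence beyond it. Such readthrough RNA is known to stay in the nucleus close to chromatin, and hyperosmotic stress is a known inducer of many DoGs. Termination normally follows cleavage of the transcript at a polyadenylation signal, most often the hexamer AATAAA, less often ATTAAA.

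The members have unrelated roles. THOC3 is a subunit of the THO/TREX complex, which couples transcription to mRNA export. OR2D2 is an olfactory receptor. TIMM10B is a small TIM protein of the mitochondrial inner membrane import machinery. TMEM38B encodes TRIC-B, a cation channel of the endoplasmic reticulum that supports calcium release. SAMD5 carries a sterile alpha motif domain. HCCS-DT is a long noncoding RNA transcribed divergently from HCCS, the enzyme that attaches heme to cytochrome c.

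The 30 bases just before each DoG region are shown because that is where a polyadenylation signal would stand. They were read from GRCh38 on the gene's strand, 5′ to 3′, and capitals mark an AATAAA or ATTAAA hexamer. The gene end was taken from the start of the authors' region. In the older GENCODE 44 models used here for annotation, THOC3 ends 1196 bases, HCCS-DT 35 bases and TIMM10B 2 bases before that point.
THOC3, chr5:175916677-175916706, minus strand: tctAATAAAacacagctcttatctgttcta
TIMM10B, chr11:6484654-6484683, plus strand: ccttgcAATAAActtccattgtgaattatc
HCCS-DT, chrX:10847543-10847572, minus strand: gtgccttcATTAAAcaaaatgttttgaaaa
OR2D2, chr11:6891574-6891603, minus strand: aggaaagtagccacaaggaatttcccatga
TMEM38B, chr9:105776600-105776629, plus strand: ctttatagtgtttgccccaggtgtaattca
SAMD5, chr6:147737518-147737547, plus strand: aaaaagcaggtcctccttttgggacagtga

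In these windows THOC3 held AATAAA 21 bases before the region start and TIMM10B held it 18 bases before. HCCS-DT held ATTAAA 16 bases before. OR2D2, TMEM38B and SAMD5 held neither hexamer in the last 30 bases. So 3 of the 6 members had one of the 2 hexamers, beside 52.9% of the 3505 gene ends searched in the same way, of which 41.1% had AATAAA and 11.8% had ATTAAA alone. Only the gene's strand was searched, and the absence of a match says only that these letters are not in this window. The OR2D2 window ends with the TGA stop codon of the gene, since its model has no annotated sequence after the coding part. For SAMD5 the annotated stop codon lies 99 bases before the DoG region.

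In untreated cells the 6 DoGs were listed in both Conv2nd libraries, and 5 of them were longer there than in any Impr library that listed them. The THOC3 DoG was listed at 245 and 260 kb in the 2 Ctrl_Conv2nd libraries and at 15 and 30 kb in the 2 Ctrl_Impr libraries. It was not listed in any Ctrl_Conv or Ctrl_Conv1st library. The ratio of its mean lengths, 11.2, was the highest among the 372 DoGs listed in both libraries of both groups.

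**Figure D1:**
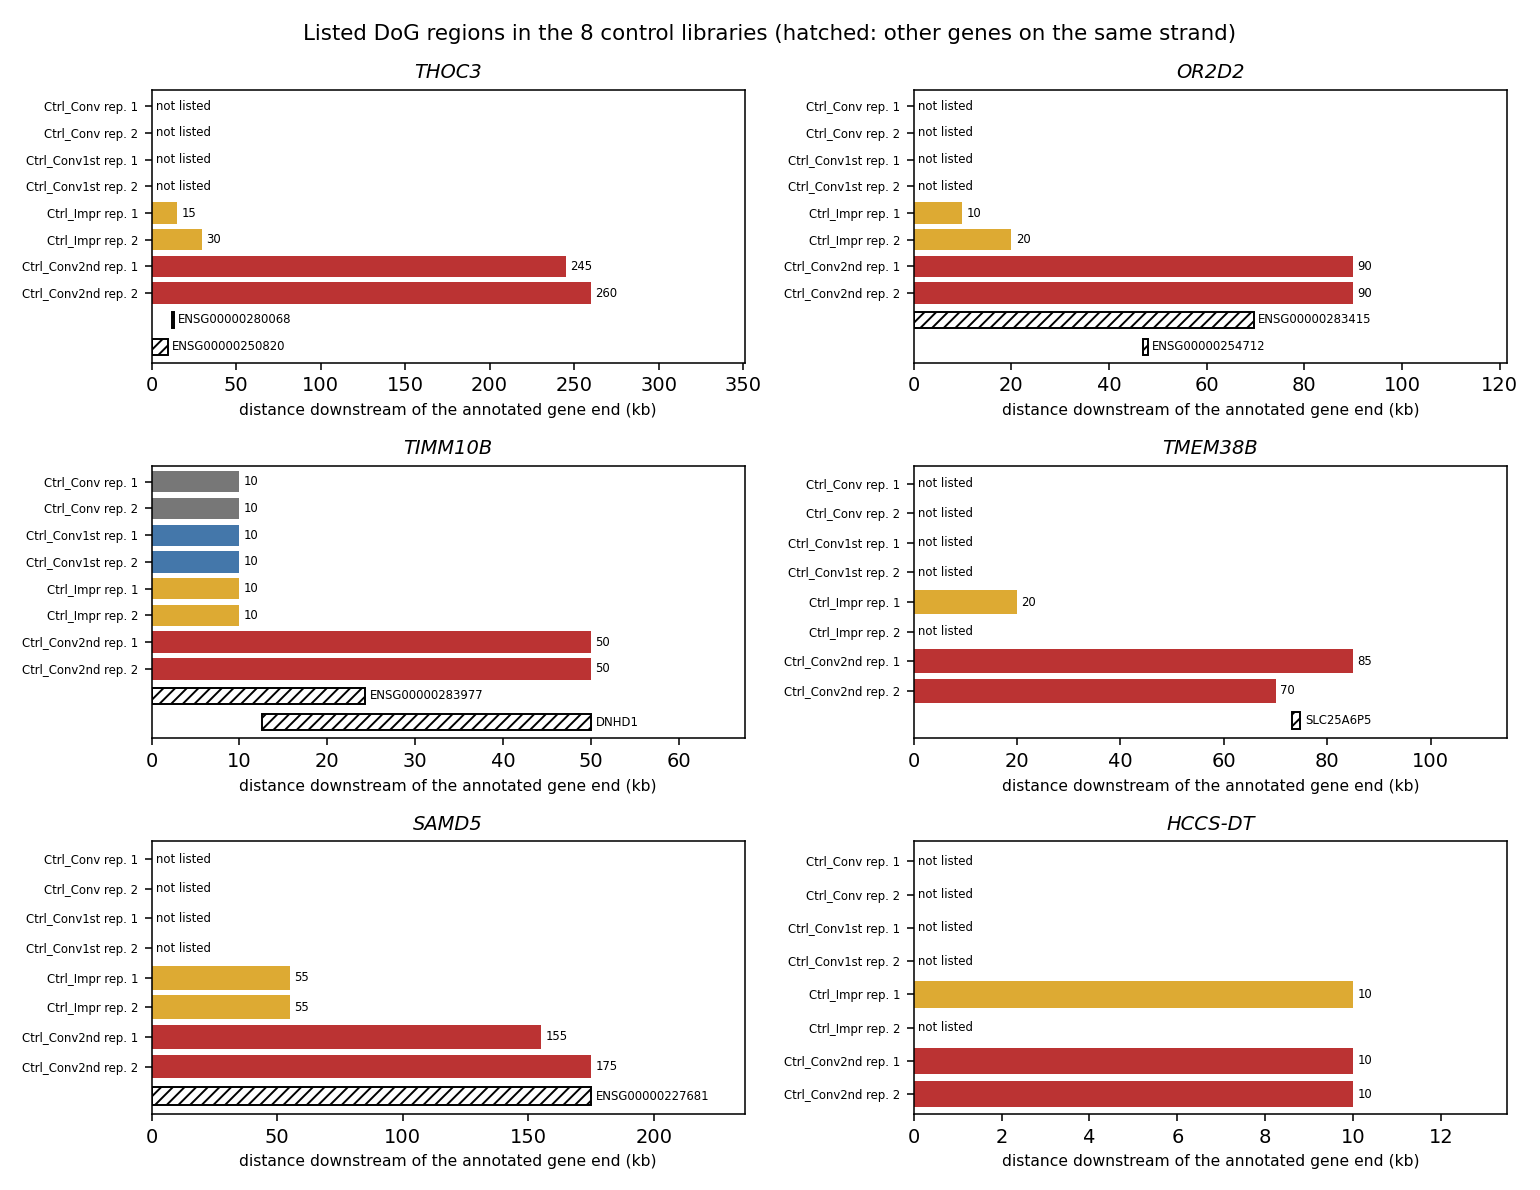
Listed DoG regions in the 8 control libraries for the 6 genes, as distance in kb downstream of the annotated gene end, with 1 bar per library (grey Conv, blue Conv1st, yellow Impr, red Conv2nd). Hatched bars show the stretch covered by other annotated genes on the same strand; the longest bars are those of Ctrl_Conv2nd, except for HCCS-DT, where every listed region is 10 kb.

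The OR2D2 DoG was listed at 90 kb in both Ctrl_Conv2nd libraries and at 10 and 20 kb in Ctrl_Impr, a ratio of 6.0 that ranked 2. The TIMM10B DoG was 50 kb in both Ctrl_Conv2nd libraries and 10 kb in each of the other 6 control libraries, a ratio of 5.0 that ranked 3. It was the only member listed in all 8 control libraries. The SAMD5 DoG was 155 and 175 kb in Ctrl_Conv2nd and 55 kb in both Ctrl_Impr libraries, a ratio of 3.0 that it shared with PHRF1 and PSAT1, at ranks 11 to 13.

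TMEM38B and HCCS-DT were listed in 1 of the 2 Ctrl_Impr libraries only, and so had no place in that ranking. The TMEM38B DoG was 85 and 70 kb in Ctrl_Conv2nd and 20 kb in Ctrl_Impr replicate 1. The HCCS-DT DoG was 10 kb, the minimum length the authors set, wherever it was listed. Region ends move in steps of 5 kb, the window of the caller, so a difference of 1 step between libraries is the resolution of these lengths. Below TIMM10B the ranking continued with other genes, led by GPR135 with 72.5 against 15.0 kb, KIAA1586 with 110 against 25 kb and SYN2 with 65.0 against 15.0 kb. The first gene with a lower ratio than SAMD5 was BTG1, with 107.5 against 37.5 kb and a ratio of 2.87.

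Several of these regions run through other annotated genes of the same strand, from whose own transcripts reads in the DoG region cannot be told apart. SAMD5 was covered over 100% of its 175 kb by the lncRNA gene ENSG00000227681 (chr6:147660703-147953937), which begins 76.8 kb upstream of the SAMD5 end, and exons made up 0.01% of the region. RefSeq places the end of SAMD5 itself 217 kb further downstream than GENCODE does, past the end of the whole listed region. TIMM10B was likewise covered over 100% of 50 kb, by the protein-coding gene ENSG00000283977 (chr11:6481485-6508978) and by DNHD1 (chr11:6497260-6593758). ENSG00000283977 begins 3.2 kb before the region and also spans TIMM10B itself, and DNHD1 begins 12.6 kb downstream. The exons of these genes took up 12.8% of the TIMM10B region. The 10 kb length of the TIMM10B DoG outside Ctrl_Conv2nd thus lay wholly within ENSG00000283977. It stopped before DNHD1, a dynein heavy chain domain gene, and the 50 kb length ran into DNHD1.

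OR2D2 was covered over 77.4% of 90 kb by the lncRNA gene ENSG00000283415 (chr11:6821942-6926878), which also spans OR2D2 itself and begins 35.3 kb upstream. The other 3 regions were mostly free of other same-strand genes. THOC3 had 3.9% of 260 kb covered by ENSG00000250820 and ENSG00000280068, and its region crossed CPLX2, a regulator of synaptic vesicle fusion, and HRH2, a histamine receptor, on the opposite strand. TMEM38B had 2.0% of 85 kb covered, by the pseudogene SLC25A6P5, and HCCS-DT had none, the next same-strand gene, MID1, lying 13.9 kb downstream.

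For THOC3 the gene end itself is a choice of annotation. Of its 12 GENCODE transcripts, 1 ends within 1500 bases of the DoG region, and the RefSeq gene ends 42.9 kb before it. Across the 6 members, 5 longest regions overlapped another same-strand gene, beside 50.1% of all 3505 genes and 51.4% of the 595 listed in both Ctrl_Conv2nd libraries. At least 50% of the region was covered in 3 members, and in 11.7% of all genes. The GC content of the longest regions ran from 38.0% in OR2D2 to 48.9% in THOC3, with a median of 45.7% over all genes. No listed region of another gene lay on the same strand within a member's regions in any of the 16 libraries.

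The abundance of a DoG was given by the authors as FPKM, a measure scaled to the length of the region and to the library, over 1 fixed region per gene. For the 6 members this region was the longest listed in Ctrl_Conv2nd. Low values in the other preparations therefore average over sequence beyond the end of their own, shorter regions. FPKM is also relative to each library, so a lower value may reflect less RNA from that region or more RNA from others, and fewer cells with a transcript cannot be told apart from less RNA per cell.

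The THOC3 DoG had FPKM of 1.34 and 1.25 in Ctrl_Conv2nd, 0.46 and 0.47 in Ctrl_Impr, 0.10 and 0.09 in Ctrl_Conv, and 0.13 and 0.09 in Ctrl_Conv1st. Under OSCHX it had 0.33 and 0.40 in Conv2nd, 0.20 and 0.19 in Impr, 0.03 and 0.02 in Conv, and 0.04 and 0.03 in Conv1st. Each preparation was lower under OSCHX than in its control, and the order Conv2nd above Impr above the aqueous preparations held in both conditions. Conv and Conv1st overlapped or touched within each condition.

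The SAMD5 DoG had FPKM of 1.41 and 1.42 in Ctrl_Conv2nd, 0.54 and 0.56 in Ctrl_Impr, 0.05 and 0.06 in Ctrl_Conv, and 0.05 and 0.06 in Ctrl_Conv1st. Under OSCHX it had 0.19 and 0.16 in Conv2nd, 0.14 and 0.15 in Impr, 0.03 in both Conv libraries, and 0.01 and 0.02 in Conv1st. Its OSCHX_Conv2nd libraries lay just above OSCHX_Impr, by 0.01 FPKM at the nearest.

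The TMEM38B DoG had FPKM of 0.93 and 1.03 in Ctrl_Conv2nd, 0.44 in both Ctrl_Impr libraries, 0.25 and 0.23 in Ctrl_Conv, and 0.23 and 0.24 in Ctrl_Conv1st. Under OSCHX it had 0.36 and 0.41 in Conv2nd, 0.25 and 0.22 in Impr, 0.05 and 0.04 in Conv, and 0.01 and 0.05 in Conv1st. The OSCHX_Impr libraries were at the level of untreated Conv and Conv1st, and the OSCHX_Conv2nd libraries were above all of these.

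**Figure D2:**
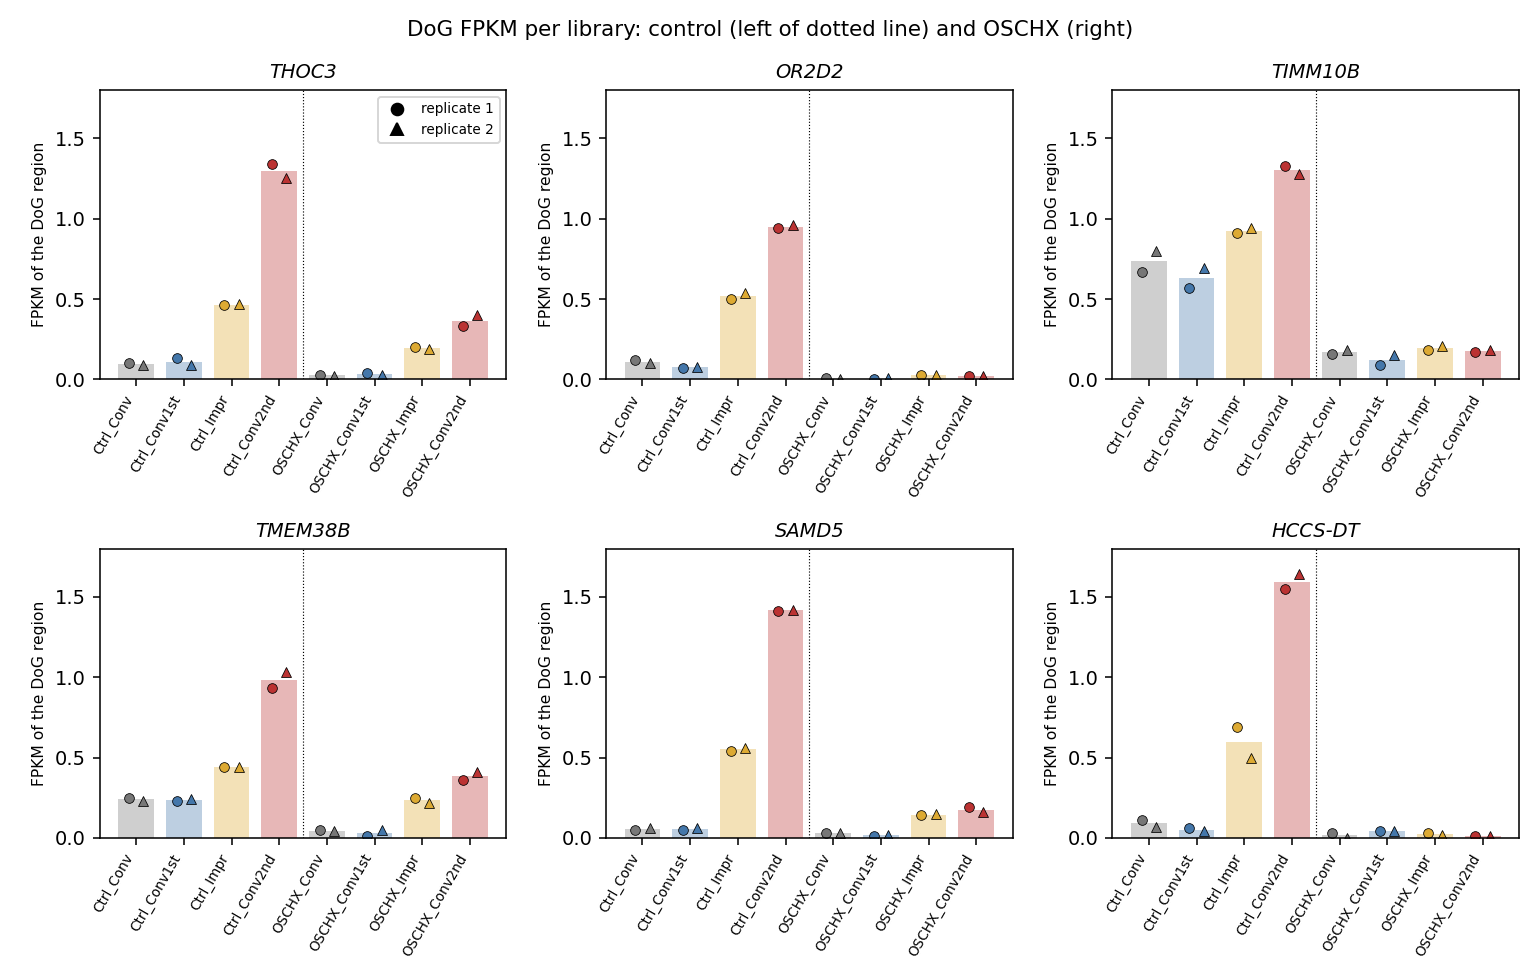
FPKM of the DoG region of the 6 genes in the 16 libraries, with bars for group means and points for the 2 replicates, control on the left and OSCHX on the right of each panel. Ctrl_Conv2nd is the highest group in each panel, and THOC3 (0.33 and 0.40) and TMEM38B (0.36 and 0.41) keep the highest OSCHX_Conv2nd values.

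The TIMM10B DoG had FPKM of 1.33 and 1.28 in Ctrl_Conv2nd, 0.91 and 0.94 in Ctrl_Impr, 0.67 and 0.80 in Ctrl_Conv, and 0.57 and 0.69 in Ctrl_Conv1st. It was the member least separated between preparations, with Ctrl_Conv and Ctrl_Conv1st overlapping. Under OSCHX it had 0.17 and 0.18 in Conv2nd, 0.18 and 0.21 in Impr, 0.16 and 0.18 in Conv, and 0.09 and 0.15 in Conv1st. Conv2nd, Impr and Conv then overlapped.

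The OR2D2 DoG had FPKM of 0.94 and 0.96 in Ctrl_Conv2nd, 0.50 and 0.54 in Ctrl_Impr, 0.12 and 0.10 in Ctrl_Conv, and 0.07 and 0.08 in Ctrl_Conv1st. Under OSCHX it had 0.02 in both Conv2nd libraries, 0.03 in both Impr libraries, 0.01 and 0.00 in Conv, and 0.00 and 0.01 in Conv1st. The HCCS-DT DoG had FPKM of 1.55 and 1.64 in Ctrl_Conv2nd, 0.69 and 0.50 in Ctrl_Impr, 0.11 and 0.07 in Ctrl_Conv, and 0.06 and 0.04 in Ctrl_Conv1st. Under OSCHX it had 0.01 in both Conv2nd libraries, 0.03 and 0.02 in Impr, 0.03 and 0.00 in Conv, and 0.04 in both Conv1st libraries. Both DoGs were thus within a few steps of 0.01, the rounding of the table, in all 8 OSCHX libraries, and their order among OSCHX groups carries little weight.

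Fitted on the log2(FPKM + 0.1) scale, Ctrl_Conv2nd exceeded Ctrl_Impr by 1.30 for THOC3, 1.30 for HCCS-DT and 1.22 for SAMD5. These were ranks 1, 2 and 3 of 3139 rows. The pseudocount of 0.1 makes these differences smaller than the ratio of FPKM for low DoGs. TMEM38B, at 1.00, was at rank 28, OR2D2, at 0.76, at rank 113, and TIMM10B, at 0.45, at rank 489. The nearest other genes below SAMD5 were BUB3 at 1.21 and STK33 at 1.17. In this contrast 0.86% of all rows were higher by the call rule used below, a share given as background only, because the contrast chose the members. OR2D2 and TIMM10B, the members ranking lowest by this difference, were the ones ranking 2 and 3 by length ratio.

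Under OSCHX, no member was listed as a DoG in any of the 8 libraries. Of the 595 DoGs listed in both Ctrl_Conv2nd libraries, 43.9% were absent from all OSCHX lists and 53.1% from both OSCHX_Conv2nd lists, and over all 3505 genes 11% were absent from all OSCHX lists. The OSCHX_Conv2nd libraries listed 2387 and 2449 DoGs, against 689 and 667 in Ctrl_Conv2nd, and the median FPKM over all rows was 0.86 and 0.84 against 0.10 in both controls. All of the members' OSCHX_Conv2nd values were below that median.

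The members' place among all DoGs of a library was high in Ctrl_Conv2nd, where high values helped to choose them, and low in OSCHX_Conv2nd. In Ctrl_Conv2nd their FPKM lay between the 91.3 percentile (TMEM38B) and the 98.5 percentile (HCCS-DT) of all rows. In OSCHX_Conv2nd they lay between the 0.22 percentile (HCCS-DT) and the 13.4 percentile (TMEM38B). The 568 other DoGs listed in both Ctrl_Conv2nd libraries also stood lower under OSCHX: their median percentile was 88.2 and 87.7 in the Ctrl_Conv2nd libraries and 18.6 and 18.5 in OSCHX_Conv2nd, with lower quartiles of 7.39 and 7.71 there. TIMM10B differed from the other members in the aqueous preparations. Under OSCHX it still stood at the 51.4 and 60.2 percentiles in Conv and the 32.1 and 51.4 percentiles in Conv1st. The 568 other DoGs had median percentiles of 56.8 and 58.0 in OSCHX_Conv and 52.5 and 56.0 in OSCHX_Conv1st. TIMM10B was thus near or below these medians, and the other members were lower still.

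**Figure D3:**
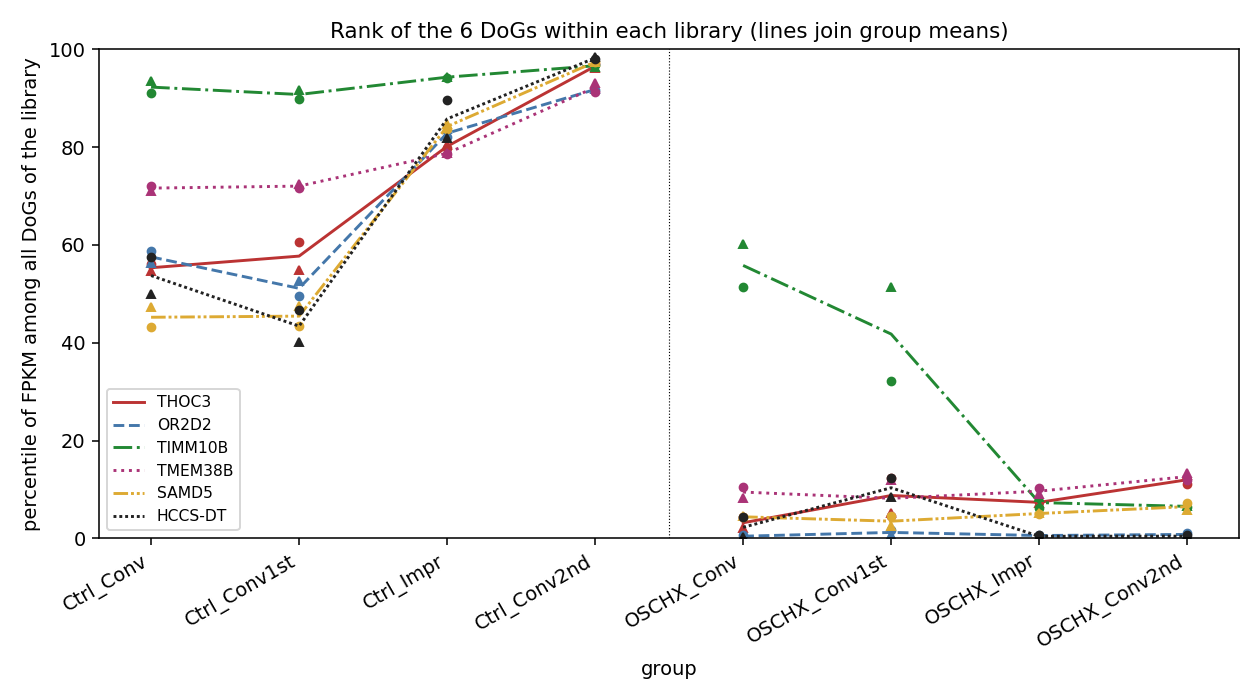
Percentile of each DoG's FPKM among all 3139 rows of its library, by group, with 1 point per library and lines joining group means within a condition. The 6 genes converge above the 91.3 percentile in Ctrl_Conv2nd and lie at or below the 13.4 percentile in OSCHX_Conv2nd, whereas TIMM10B stays between 32.1 and 60.2 in OSCHX_Conv and OSCHX_Conv1st.

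As a description of the libraries that chose the members, OSCHX_Conv2nd held 39.3% of the Ctrl_Conv2nd mean FPKM for TMEM38B, 28.2% for THOC3, 13.4% for TIMM10B, 12.4% for SAMD5, 2.11% for OR2D2 and 0.63% for HCCS-DT. In Impr the OSCHX mean was 53.4% of control for TMEM38B, 41.9% for THOC3, 26.4% for SAMD5, 21.1% for TIMM10B, 5.77% for OR2D2 and 4.20% for HCCS-DT. The order of the members was the same in both preparations except for SAMD5 and TIMM10B, which changed places. These values share the control libraries with the choice of members, which favoured high values in Ctrl_Conv2nd.

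Values in conventional and 1st-step RNA played no part in the choice, so the effect of OSCHX was tested there. The test was limma with Benjamini-Hochberg adjustment over all 3139 rows. The members were still picked as DoGs of untreated cells, and their FPKM regions were those of Ctrl_Conv2nd. A fall under OSCHX was thus favoured beforehand, and the p-values are not independent support for it. DoGs listed in both Ctrl_Conv2nd libraries, also defined in untreated cells, are the closer background. A DoG was called when its adjusted p was under 0.05 and its log2 fold change at least 1 in size. The spread behind each p-value was pooled over the replicates of all 8 groups, so it includes the Ctrl_Conv2nd and Ctrl_Impr libraries that chose the members. With 2 libraries per group, it covers only the variation between such replicates. Fitted on the 4 compared libraries alone, the counts of members called stayed the same. TMEM38B in OSCHX_Conv1st against Ctrl_Conv1st then had an adjusted p of 0.0110 by limma. The members are low enough for the pseudocount to set their calls: with 1 in place of 0.1, 0 of the 6 were called in any of the comparisons below.

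In OSCHX_Conv against Ctrl_Conv, 3 of the 6 members fell, beside 11% of all rows called lower. TIMM10B, the import chaperone, fell by 1.63 ± 0.13 (SE) on the log2 scale (adjusted p = 3.25e-07). TMEM38B fell by 1.23 ± 0.12 (adjusted p = 2.37e-06) and OR2D2 by 1.00 ± 0.08 (adjusted p = 3.34e-07), with 1 of its 2 OSCHX libraries listed at 0.00. The OR2D2 difference lies exactly on the size threshold, so its call rests on the pseudocount. The other 3 members differed by -0.73 (HCCS-DT), -0.64 (THOC3) and -0.25 (SAMD5) and were not called. By adjusted p alone all 6 were lower, beside 21.8% of all rows, and without replicate 2 SAMD5 no longer passed (adjusted p = 0.135). All 6 members had an unadjusted p under 0.05 by limma, as did 2544 of the 3139 rows. Over all rows the median difference was 0.44, and over the 574 rows of DoGs listed in both Ctrl_Conv2nd libraries it was -0.86, with 44.4% called lower. The members' median was -0.86.

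In OSCHX_Conv1st against Ctrl_Conv1st, 2 members fell, beside 10.6% of all rows called lower. TIMM10B fell by 1.74 ± 0.13 (adjusted p = 1.93e-07) and TMEM38B by 1.38 ± 0.12 (adjusted p = 8.62e-07). OR2D2, at -0.74, THOC3, at -0.63, and SAMD5, at -0.43, had adjusted p under 0.05 below the size threshold, so that 5 of 6 were lower by adjusted p alone, beside 22% of all rows. HCCS-DT, at -0.10 ± 0.15, did not pass (adjusted p = 0.570), and its groups touched at 0.04 FPKM. The members' median was -0.68, against 0.43 over all rows and -0.79 over DoGs listed in both Ctrl_Conv2nd libraries, of which 41.5% were called lower. A test of the difference between the 2 OSCHX effects, Conv1st minus Conv, passed for no member. The lowest adjusted p was 0.499, for HCCS-DT at 0.63 ± 0.21, and the other 5 differences ran from -0.18 to 0.26.

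The next comparison asked whether the members were still richer in the interphase fraction than in Impr when cells were under OSCHX. None of the 6 was called in OSCHX_Conv2nd against OSCHX_Impr by limma, beside 6.91% of all rows called higher and 1.75% lower. At an unadjusted p under 0.05 there were 2, which were also the ones higher by adjusted p alone, as were 68.7% of all rows. THOC3 differed by 0.65 ± 0.10 (adjusted p = 0.000145) and TMEM38B by 0.53 ± 0.12 (adjusted p = 0.00228), below the size threshold. Differences above 0 were found in 3 of the 6 members and in 2727 of all 3139 rows. TMEM38B no longer passed without replicate 2 (adjusted p = 0.0986) or with a pseudocount of 0.01 (adjusted p = 0.132). The differences were 0.16 for SAMD5 (adjusted p = 0.0744), -0.10 for TIMM10B (adjusted p = 0.506), -0.12 for OR2D2 (adjusted p = 0.213) and -0.18 for HCCS-DT (adjusted p = 0.290). The median difference over all rows was 0.52, so THOC3 and TMEM38B were near it and the other 4 below it. With each library centred on its own median, the differences of THOC3 and TMEM38B were 0.17 (adjusted p = 0.195) and 0.051 (adjusted p = 0.762). Those of SAMD5, OR2D2, TIMM10B and HCCS-DT were then -0.32 (adjusted p = 0.00755), -0.60 (adjusted p = 0.000170), -0.58 (adjusted p = 0.00695) and -0.67 (adjusted p = 0.00379). Among DoGs listed in both Ctrl_Conv2nd libraries the median was 0.22. Because every OSCHX list lacked the members, their region lengths could not be compared under OSCHX.

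Set beside the control values that chose them, the same ratio Conv2nd to Impr was 2.79 in control and 1.87 under OSCHX for THOC3, and 2.23 and 1.64 for TMEM38B. It was 2.57 and 1.21 for SAMD5, 1.41 and 0.90 for TIMM10B and 1.83 and 0.67 for OR2D2, and 2.68 and 0.40 for HCCS-DT. All 6 ratios were lower under OSCHX, those of OR2D2 and HCCS-DT at values near the rounding of the table. The control ratios were selected to be high, and no test of this difference is given.

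In OSCHX_Conv2nd against OSCHX_Conv1st, 3 of 6 members were called higher, beside 79.3% of all rows, and 0 lower, beside 2.96%. They were TMEM38B at 1.91 ± 0.12 (adjusted p = 1.10e-08), THOC3 at 1.78 ± 0.10 (adjusted p = 3.35e-09) and SAMD5 at 1.26 ± 0.08 (adjusted p = 6.56e-09). TIMM10B differed by 0.34, OR2D2 by 0.19 and HCCS-DT by -0.35, each with an adjusted p under 0.05 and below the size threshold. By adjusted p alone 5 members were then higher and 1 lower, beside 88.2% and 5.7% of all rows. With the replicate number as a block, since both fractions come from 1 lysate, OR2D2 did not pass (adjusted p = 0.0584). On the 4 libraries alone OR2D2 (adjusted p = 0.247), TIMM10B (adjusted p = 0.172) and HCCS-DT (adjusted p = 0.0648) did not pass, nor did these 3 without replicate 1, and HCCS-DT did not pass without replicate 2 either (adjusted p = 0.177). The median over all rows was 1.99, so all members were below the median of DoGs as a whole. Among the 574 rows of DoGs listed in both Ctrl_Conv2nd libraries, the median was 1.02, with 51.2% called higher and 7.14% lower. TMEM38B, THOC3 and SAMD5 were above that median and the other members below it. With each library centred on its own median, 0 members were called higher and 3 lower, OR2D2, TIMM10B and HCCS-DT, the differences of THOC3, TMEM38B and SAMD5 turned to -0.20, -0.070 and -0.73, and over all rows 211 were higher and 639 lower, against 2489 higher and 93 lower without centring.

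In OSCHX_Impr against OSCHX_Conv, 2 of 6 members were called higher, beside 68.8% of all rows, and 0 lower, beside 0.478%. They were THOC3 at 1.24 ± 0.10 (adjusted p = 1.72e-07) and TMEM38B at 1.21 ± 0.12 (adjusted p = 1.38e-06). SAMD5, at 0.91, and OR2D2, at 0.31, had adjusted p under 0.05 below the size threshold, so that 4 were higher by adjusted p alone, beside 85.5% of all rows. Without replicate 2 OR2D2 did not pass (adjusted p = 0.0685). HCCS-DT (0.13) and TIMM10B (0.13) did not pass. The median over all rows was 1.40, and that of the members 0.61. Among DoGs listed in both Ctrl_Conv2nd libraries it was 0.72, with 39.4% called higher and 1.22% lower. Centred on the library medians, all 6 differences were negative, 0 members were called higher and 3 lower, OR2D2, TIMM10B and HCCS-DT, with 111 rows higher and 502 lower overall against 2159 and 15 without centring.

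**Figure D4:**
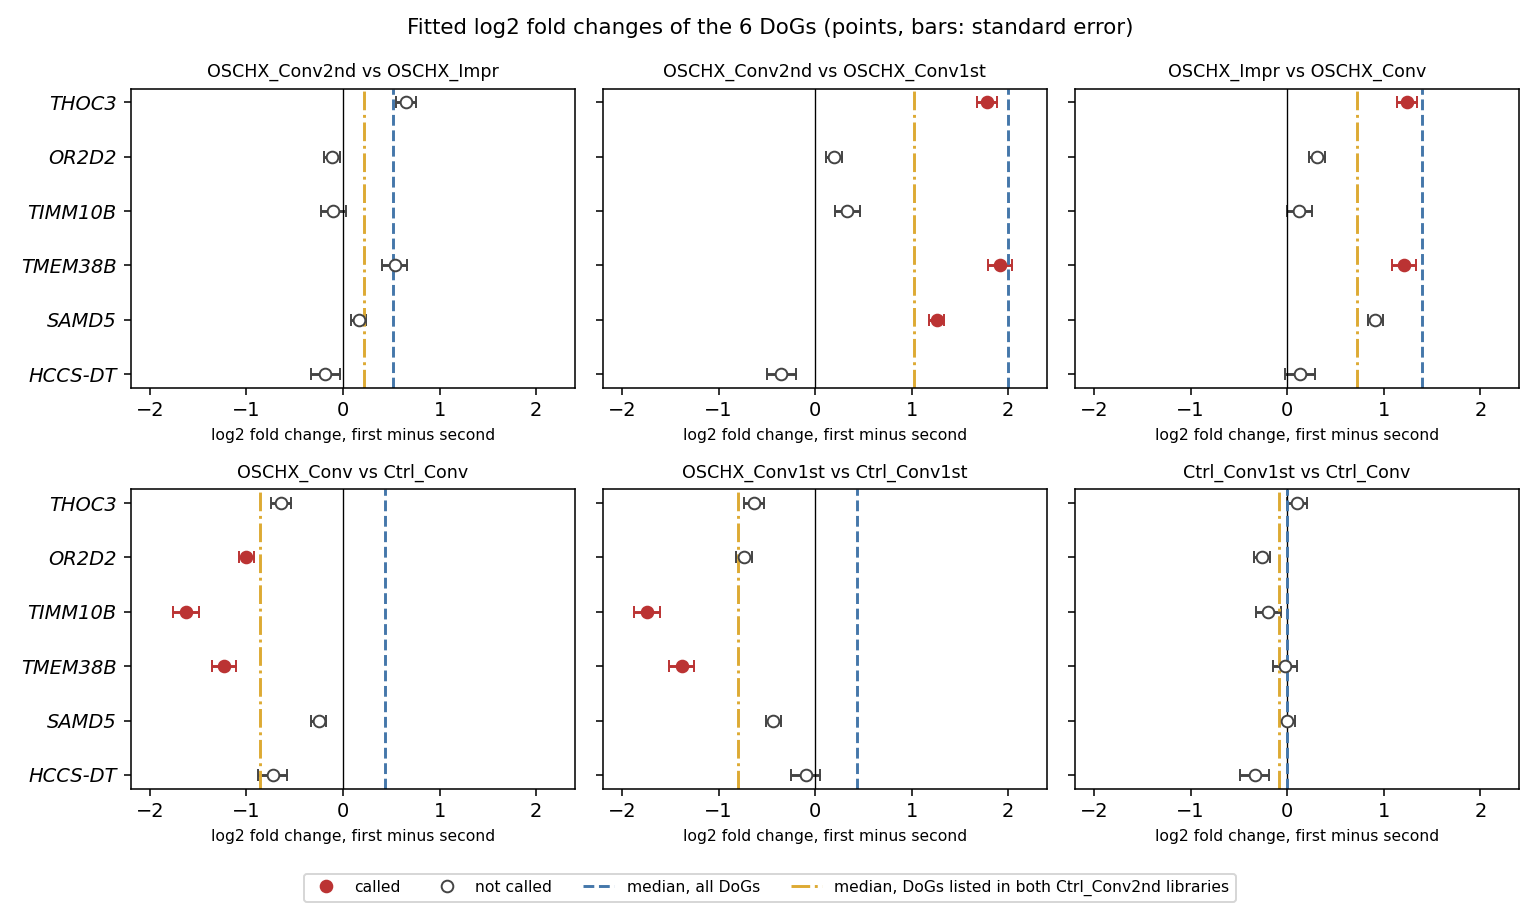
Fitted log2 differences of the 6 DoGs (points, with SE as bars) in the 6 comparisons that did not choose them, filled red where called. The dashed blue line is the median of all 3139 rows and the dash-dotted yellow line that of the DoGs listed in both Ctrl_Conv2nd libraries; in the 3 comparisons among OSCHX preparations THOC3 and TMEM38B lie nearest to the blue line, and both OSCHX against control panels show all 6 points below 0.

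Ctrl_Conv1st and Ctrl_Conv, which are both aqueous phases, differed by less than the threshold for every member. By limma 0 of the 6 members and 0% of all rows were called, with 355 of the 3139 rows, and 2 members, at an unadjusted p under 0.05. These were OR2D2 at -0.26 ± 0.08 (adjusted p = 0.348) and HCCS-DT at -0.34 ± 0.15 (adjusted p = 0.438).

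The members split by where their signal was in untreated cells. TIMM10B was abundant in every control preparation, with Ctrl_Conv2nd 2.07 times Ctrl_Conv1st, and TMEM38B followed with 4.17 times. The ratio was 11.8 for THOC3, 12.7 for OR2D2, 25.7 for SAMD5 and 31.9 for HCCS-DT, all of which had FPKM of at most 0.13 in every untreated Conv and Conv1st library. Across the 16 libraries, the log2(FPKM + 0.1) values of OR2D2 and HCCS-DT had a Pearson r of 0.979, those of THOC3 and SAMD5 of 0.966, and those of THOC3 and TIMM10B, the least alike pair, of 0.627. These are descriptions over libraries that share group differences.

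Around OR2D2, further genes of the olfactory receptor cluster on chromosome 11 had DoGs whose levels were likewise highest in Ctrl_Conv2nd and near 0 under OSCHX, although OR2D2 was also listed in Ctrl_Impr and they were not. Downstream on the same strand, the DoG of OR6A2 began 99.8 kb from the OR2D2 end and was listed in Ctrl_Conv2nd only, at 10 and 15 kb. That of OR2AG2 began 126 kb from the OR2D2 end and was also listed in Ctrl_Conv2nd only, at 35 kb in both libraries. The 90 kb OR2D2 region thus ended short of OR6A2. OR6A2 had FPKM of 0.81 and 0.82 in Ctrl_Conv2nd and 0.44 and 0.42 in Ctrl_Impr, and OR2AG2 had 0.84 and 0.78 and then 0.35 and 0.34. Under OSCHX, both were at 0.03 or below in every library. The next DoG along the strand, that of the mitochondrial ribosomal protein gene MRPL17, began 211 kb from the OR2D2 end and differed from them. It was listed in OSCHX libraries only, in 7 of 8, and had FPKM of 0.90 and 0.73 in OSCHX_Conv2nd against 0.40 and 0.33 in Ctrl_Conv2nd.

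**Figure D5:**
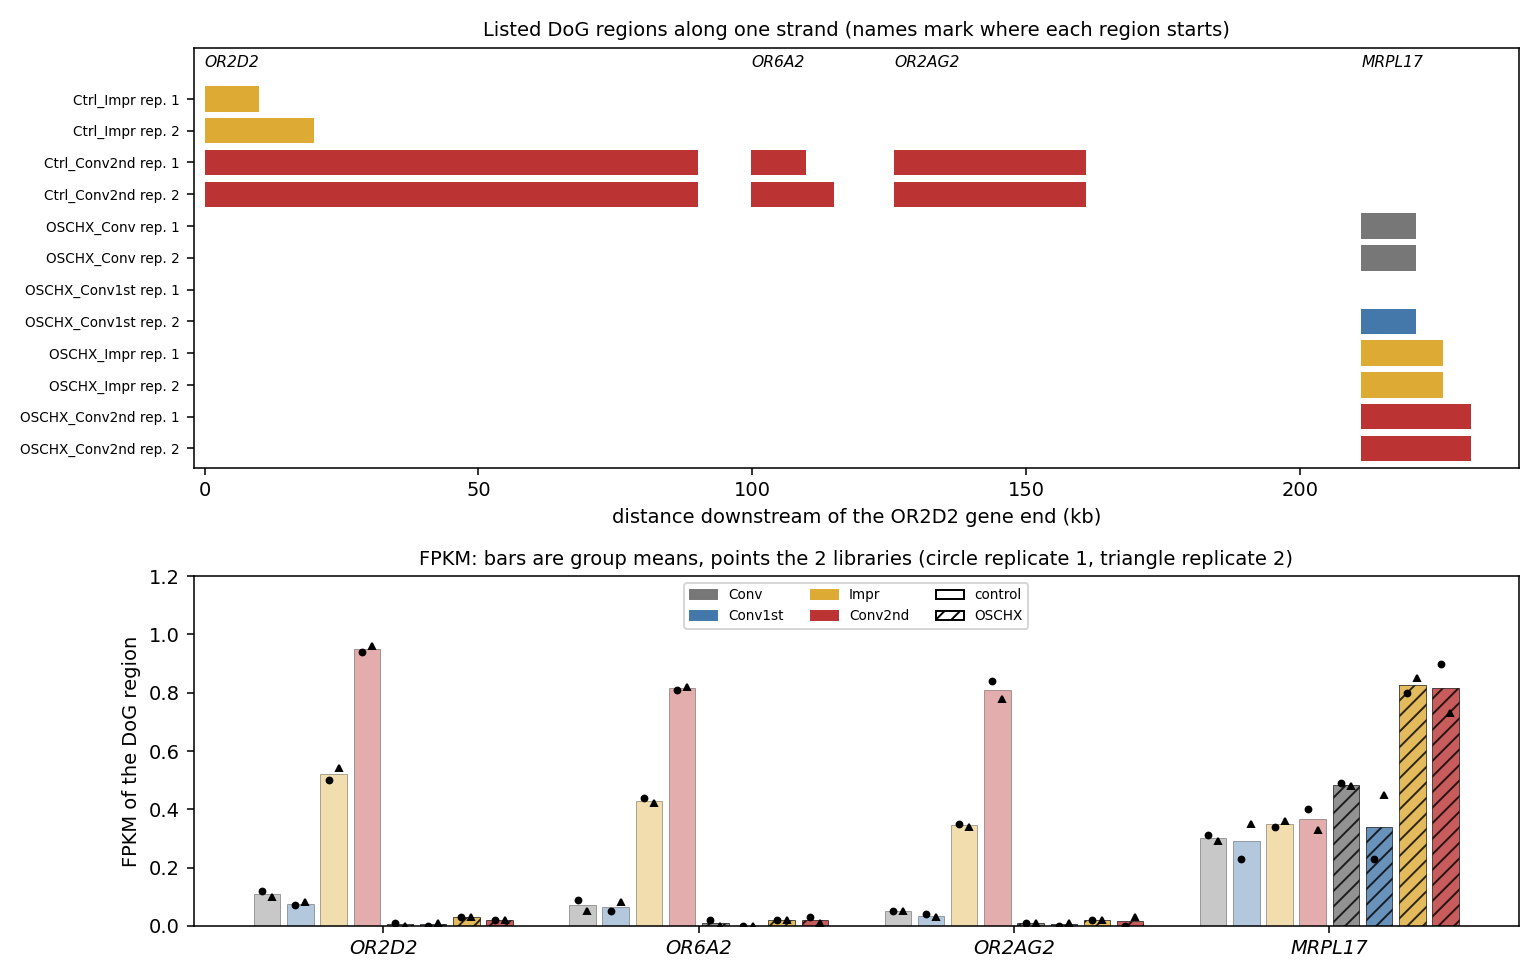
Upper panel, listed DoG regions of 4 genes on 1 strand as distance in kb downstream of the OR2D2 gene end, for the libraries of the groups that list any; lower panel, FPKM of these DoGs in the 8 groups (bars, group means; points, the 2 libraries; hatching, OSCHX). OR2D2, OR6A2 and OR2AG2 are listed and abundant in control interphase RNA and at 0.03 FPKM or below in OSCHX, and MRPL17, starting 211 kb away, is listed in OSCHX libraries only.

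The DoG of RRP8, a nucleolar methyltransferase gene added after its values were seen, was set beside that of TIMM10B. It had FPKM of 1.02 and 0.94 in Ctrl_Conv2nd and 0.53 and 0.54 in OSCHX_Conv2nd, above the 0.17 and 0.18 of TIMM10B there. In Conv it had 0.50 in both control libraries and 0.19 and 0.16 under OSCHX, and in Conv1st 0.43 and 0.46 against 0.13 and 0.19, values under OSCHX like those of TIMM10B.

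The rows most like each member over the 16 libraries, by Pearson r of log2(FPKM + 0.1) among rows reaching 0.5 FPKM, were NDUFA10 (0.978) and FTX (0.975) for THOC3, and BALR6 (0.996) and OR6A2 (0.994) for OR2D2. They were KCNG3 (0.992) and LRP6 (0.991) for TIMM10B, MCM5 (0.990) and WASHC4 (0.988) for TMEM38B, BCKDHB (0.981) and RFC3 (0.970) for SAMD5, and OR2AG2 (0.989) and BALR6 (0.985) for HCCS-DT. BALR6 was thus among the rows most like both OR2D2 and HCCS-DT, with a mean FPKM of 1.05 in Ctrl_Conv2nd and 0.015 in OSCHX_Conv2nd. These rows were picked for their likeness, which gets no test.

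DoGs of genes related by function to the members did not share 1 profile. Of TREX and mRNA export genes, 10 had a row. In OSCHX_Conv2nd against OSCHX_Impr 0 were higher and 1 lower, beside 6.91% and 1.75% of all rows, with a median of 0.59 against 0.52 over all rows. The 1 lower was THOC5, another THO subunit, at -1.58 ± 0.11 (adjusted p = 1.13e-06). Its FPKM was 0.48 and 0.38 in OSCHX_Conv2nd and 1.42 and 1.53 in OSCHX_Impr, and it stood at 3.02 and 3.16 in OSCHX_Conv, so that its order of preparations was the reverse of that of THOC3. THOC7 differed by -0.99 and THOC6 by 0.97, just under the size threshold. In OSCHX_Conv against Ctrl_Conv, 2 of the 10 rose and 2 fell, THOC3 not among them, beside 22.2% of all rows higher and 11% lower.

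Among the 6 small TIM and TIM22 rows, 0 were called in OSCHX_Conv2nd against OSCHX_Impr, beside 6.91% of all rows higher and 1.75% lower. The largest difference besides TIMM10B was 0.73 for TIMM29, a TIM22 subunit (adjusted p = 7.94e-05). In OSCHX_Conv against Ctrl_Conv 2 of the 6 fell and 0 rose, and without TIMM10B itself 1 of 5 fell, against the same 22.2% higher and 11% lower over all rows. Of the calcium release list, ITPR3, an inositol trisphosphate receptor, was the only row besides TMEM38B. By limma it was called higher in OSCHX_Conv2nd than in OSCHX_Impr, at 1.03 ± 0.08 (adjusted p = 1.55e-06). Its FPKM was 0.92 and 0.90 in OSCHX_Conv2nd against 0.41 and 0.38 in OSCHX_Impr. In every control library and in OSCHX_Conv1st it had at most 0.04. TMEM38B thus had its highest DoG level in untreated interphase RNA and ITPR3 in OSCHX interphase RNA.

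Among 7 olfactory receptor rows, 0 were called in OSCHX_Conv2nd against OSCHX_Impr, beside 6.91% of all rows higher and 1.75% lower, shares that hold for the lists below too. OR1E2, OR1A1 and OR2C1 had at most 0.02 FPKM in every control library and between 0.38 and 0.85 in OSCHX_Conv2nd, unlike OR2D2, OR6A2 and OR2AG2. Of the SAM domain genes 3 had a row and 0 were called, and SAMD11 had 0.81 and 0.90 FPKM in OSCHX_Conv2nd against 0.04 and 0.03 in Ctrl_Conv2nd, the reverse of SAMD5. Of the cytochrome c list only CYCS, cytochrome c itself, had a row besides HCCS-DT. It was not called, at 0.43 ± 0.09, and stood at 3.89 and 3.95 FPKM in OSCHX_Conv2nd against 0.31 and 0.29 in Ctrl_Conv2nd. Of 32 divergent transcripts, 1 was called higher and 0 lower in OSCHX_Conv2nd against OSCHX_Impr, beside the same 6.91% and 1.75% of all rows. It was TMEM11-DT at 1.11 ± 0.17 (adjusted p = 9.83e-05), and the median of the 32 was 0.54. In OSCHX_Conv against Ctrl_Conv, 4 of the 32 rose and 4 fell, against 22.2% and 11% of all rows.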

How the data were processed

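DoG region lists and DoG abundance of 16 HEK293 libraries (8 groups, 2 biological replicates each) were used. The authors trimmed reads with fastp 0.25.0, removed rDNA reads with Bowtie2 2.5.4, kept unique alignments to GRCh38 from STAR 2.7.11b, and called DoGs per library with ARTDeco on GENCODE 49 genes (minimum length 10000 bases, window 5000, minimum coverage 0.5). The deposited FPKM values are scaled to region length and library and rounded by the authors to 2 decimals; the reads used for scaling are not given in the sources used here. Whole reads could not be recovered, so the depth per library is unknown, no count test was run, and limma stands in for the DESeq2 comparisons of the authors' methods. The precision rests on 2 libraries per group.

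Python 3.11.15, pandas 2.3.3, numpy 2.4.6, R 4.3.3 and limma 3.58.1 were used. log2(FPKM + 0.1) of all 3139 rows was fitted with limma (intensity trend) as 8 group means over 16 libraries, with Benjamini-Hochberg adjustment, calling at adjusted p under 0.05 and a log2 fold change of at least 1. The fit was tested on simulated data. 4 genes have 2 rows, and 370 listed genes have none. Ensembl IDs were matched to GENCODE 44 (3495 of 3505) and RefSeq on GRCh38, so gene ends can differ from the authors' release. The members and gene lists were chosen with earlier results of these data known. Named genes were the members, genes in or next to their regions, at most 3 per list by size of the difference in OSCHX_Conv2nd against OSCHX_Impr, the 2 rows most like each member, and neighbours in the control rankings; MRPL17, RRP8 and STK33 were added after their values were seen. Alternatives were other pseudocounts, a mean FPKM filter, median centring, a replicate block, the 4 libraries alone, no trend, adjusted p alone and leaving out each replicate. By the authors' methods the preparations were made in parallel from shared samples, and both SERIPH fractions come from 1 lysate, so same-numbered preparations of a condition may be paired; their deviations from the group means did not go together (12 pairs, correlation -0.073 to 0.057). The block was fitted as an alternative, and its value is given where it changes a result.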

Additional observations from a re-analysis of the deposited data

How the results depend on the processing

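Of 360 member differences recomputed under the alternatives, 310 kept their direction and their side of the threshold, 27 newly passed it, 10 no longer passed and 13 changed sign. The filter on mean FPKM, the fit on the 4 libraries alone and the fit without the intensity trend changed no count of members called. Same-numbered preparations may be paired by design, and with a replicate block the counts of members called stayed at 0 (OSCHX_Conv2nd against OSCHX_Impr), 3 (OSCHX_Conv2nd against OSCHX_Conv1st), 2 (OSCHX_Impr against OSCHX_Conv), 3 (OSCHX in Conv), 2 (OSCHX in Conv1st) and 0 (Ctrl_Conv1st against Ctrl_Conv), while OR2D2 in OSCHX_Conv2nd against OSCHX_Conv1st moved to an adjusted p of 0.0584. The block moved no other member across an adjusted p of 0.05. Without replicate 1 or replicate 2 the same counts, 0, 3, 2, 3, 2 and 0, were found, with the lone sample of each group assumed to vary like the rest. The pseudocount decided most calls, since the members are low: with 0.01 the counts were 5 (4 higher, 1 lower) in OSCHX_Conv2nd against OSCHX_Conv1st, 4 in OSCHX_Impr against OSCHX_Conv and 5 each for OSCHX in Conv and in Conv1st, and with 1 all of these were 0. By adjusted p alone the counts were 2, 6 (5 higher, 1 lower), 4, 6 and 5, in the order above.

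Median centring of each library gave 3 members lower instead of 3 higher in OSCHX_Conv2nd against OSCHX_Conv1st, 3 lower instead of 2 higher in OSCHX_Impr against OSCHX_Conv, and 5 and 4 lower for OSCHX in Conv and in Conv1st. It subtracts the shift of DoGs as a whole, so differences below the median of all rows turn negative. In OSCHX_Conv2nd against OSCHX_Conv1st these became -0.20 for THOC3, -1.79 for OR2D2, -1.65 for TIMM10B, -0.070 for TMEM38B and -0.73 for SAMD5. In OSCHX_Impr against OSCHX_Conv they became -0.21 for THOC3, -1.14 for OR2D2, -1.32 for TIMM10B, -0.24 for TMEM38B, -0.53 for SAMD5 and -1.31 for HCCS-DT. SAMD5 became -0.32 in OSCHX_Conv2nd against OSCHX_Impr. TMEM38B in Ctrl_Conv1st against Ctrl_Conv, at -0.02 with all libraries, was 0.043 without replicate 1 and -0.085 without replicate 2. The count of 0 members listed in both OSCHX_Conv2nd libraries was also 0 in either replicate, with a 20 kb minimum and in each replicate alone. The alternatives planned for region lengths under OSCHX give no value, since no OSCHX library lists a member. Depth is unknown, and values are resolved to 0.01 FPKM.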
